A study of Homo sapiens with 12 samples.

Results

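The comparison described here is hemin against mock in K562 cells that had been treated with nilotinib, 6 libraries of the 12 in the series, and it covers the 20821 genes that passed an expression filter of 58735 counted. K562 is a human erythroleukemia line driven by the BCR-ABL1 kinase, and hemin is used to make it produce hemoglobin. Nilotinib is an inhibitor of that kinase. The members were chosen by their labels and by no measured value. The 3 mock nilotinib libraries came from cells given 0.1 μM nilotinib without hemin, and the 3 hemin nilotinib libraries from cells given 0.1 μM nilotinib before and 50 μM hemin for 24 h, so all 6 share the inhibitor. The remaining 6 libraries, 3 mock DMSO and 3 hemin DMSO, hold the vehicle in place of the inhibitor, and they show below where the response to hemin differed without nilotinib. They also entered the model that all 12 libraries share, and so set part of the spread behind each test. Each group holds 3 biological replicates of a single cell line. The sources give mock nilotinib either as harvested when hemin was added or together with the hemin cells, and under the former the time in nilotinib differs between the groups, so that time and hemin cannot be told apart.

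Hemin is heme with oxidized iron, and a cell that takes it up meets several kinds of demand. Heme binds the repressor BACH1 and releases genes that the activator NRF2 also drives, among them heme oxygenase, the ferritins and the enzymes of glutathione and thioredoxin metabolism. Excess heme and its iron damage proteins, which engages the heat-shock factor HSF1 and its chaperone genes. In erythroid cells, heme also holds back the eIF2α kinase HRI, whose activity raises the mRNAs of the integrated stress response, and it supports globin synthesis.

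K562 identity was visible in all 6 libraries. Each of the 10 marker genes fixed for K562 was detected, with a summed level of 9425 to 11074 CPM (counts of a gene scaled by library total and edgeR's TMM factor) in mock nilotinib and 7906 to 15931 CPM in hemin nilotinib. Total counts were 33457078 to 36893606 in mock nilotinib and 35333809 to 40874699 in hemin nilotinib. Markers of other lineages summed to less than those of K562, although most of them were detected. Of 18 megakaryocyte markers, 14 had counts, while GP1BB, PPBP, FLI1 and TREML1 were at 0 in all 6 libraries. The list summed to 275 to 296 CPM in mock and 273 to 339 CPM in hemin nilotinib. The 17 myeloid markers, of which 15 had counts, summed to 38.2 to 45.0 CPM and 16.0 to 34.7 CPM, with CTSG and S100A8 at 0. The lymphocyte list, with 8 of 9 detected and CD8A at 0, summed to 2.45 to 2.65 CPM and 1.78 to 5.45 CPM. The list for fibroblasts and epithelium, with 8 of 9 detected and LUM at 0, summed to 52.0 to 68.5 CPM and 45.1 to 51.4 CPM. In bulk RNA, fewer cells of a kind and less RNA per cell cannot be told apart.

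Hemin nilotinib replicate 1 stood apart from the other 2 libraries of its group. On the first principal component of the 6 libraries, which held 42.0% of the variance, it lay at -17.6, between the mock libraries at -38.3 to -28.9 and hemin nilotinib replicates 2 and 3 at 41.2 and 75.5. Its 30 heat-shock genes summed to 8962 CPM, against 16977 and 28097 CPM in replicates 2 and 3 and 4876 to 6107 CPM in mock nilotinib. Its 11 genes of the globin list, which includes the globin chaperone, summed to 19274 CPM. That was above the 12791 and 11198 CPM of replicates 2 and 3 and the 7833 to 11083 CPM of mock nilotinib. Because of this library, the counts of called genes in the lists are also given without it.

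At a Benjamini-Hochberg adjusted p of 0.05 in the quasi-likelihood test of edgeR, hemin changed 1208 genes in nilotinib-treated cells, 5.80% of those tested. Of these, 733 were higher (3.52%) and 475 lower (2.28%). In 2428 genes (11.7%) the 3 hemin libraries all lay above the 3 mock libraries, and in 2423 (11.6%) all lay below. A change of 2-fold or more was estimated for 404 of the higher and 161 of the lower genes. Without hemin nilotinib replicate 1, 1751 genes were higher (8.41%) and 1023 lower (4.91%), and 1149 of the 1208 were among them. With the 6 libraries fitted alone, 183 genes were called, 119 higher and 64 lower, and limma-voom with sample quality weights called 10153. Leaving out mock nilotinib replicate 2, mock nilotinib replicate 3 or hemin nilotinib replicate 2 reduced the count to 198, 237 and 260. Of these, 143, 156 and 190 were higher. Counts of list genes with a library left out are to be read beside these totals. With library totals and no composition factor, 527 genes were higher and 545 lower, so that the share of higher genes went from 60.7% to 49.2%. The labels number the replicates, and these numbers were taken to pair the libraries with nilotinib. The fits above hold no block for them, nor do the adjusted p values below unless the block is named. With the number as a block 878 genes were higher (4.22%) and 709 lower (3.41%).

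In edgeR, the same hemin without nilotinib changed far more genes, 5360 higher (25.7%) and 5796 lower (27.8%). The gap depended on the method. With limma-voom and sample quality weights it was smaller, at 13377 genes without nilotinib and 10153 with it. The median size of the log2 fold change over all genes was 0.29 with nilotinib and 0.69 without it. The comparisons share no library. Of the 733 genes higher with nilotinib, 530 (72.3%) were also higher without it, which is 9.89% of the longer list, whereas 42 were lower. Of the 475 genes lower with nilotinib, 296 (62.3%) were lower without it, 5.11% of the longer list, and 26 were higher. Across the 20821 genes, which are not independent replicates, the log2 fold changes had a Pearson correlation of 0.435. The list medians written out here kept their sign with RLE, upper-quartile or no composition factors, whereas those plotted for glycolysis and interferon-stimulated genes without nilotinib changed sign with no composition factor and with upper-quartile factors, respectively. The median of all genes did not. With no composition factor it went from 0.03 to -0.01 with nilotinib and from -0.05 to -0.29 without it, where 3881 genes were then higher and 7578 lower, and with upper-quartile factors the latter was 0.07. In the test of the difference between the effects, 3558 genes (17.1%) had a more positive and 2713 (13.0%) a more negative effect with nilotinib. These became 2914 and 3380 with upper-quartile factors, and 4799 and 1752 with no composition factor.

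**Figure D1:**
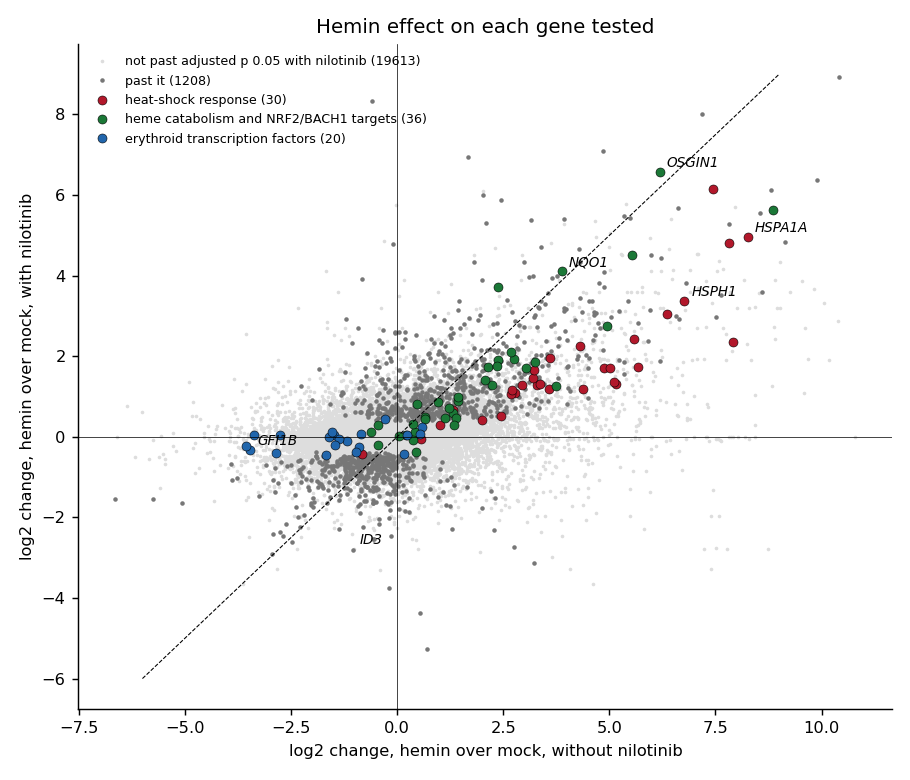
Log2 change from mock to hemin for each of 20821 genes, without nilotinib on the horizontal axis and with nilotinib on the vertical axis, with the dashed line marking equal changes. Heat-shock genes (red) lie mostly below the line, with HSPA1A at 8.26 and 4.95, OSGIN1 of the NRF2/BACH1 list (green) lies near it at 6.18 and 6.56, and erythroid transcription factors (blue) lie near 0 on the vertical axis.

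The gene set of heme breakdown, iron storage and oxidant defence rose in nilotinib-treated cells. Of 36 NRF2/BACH1 target genes tested, 22 were higher with hemin and 0 were lower, against 3.52% of all genes higher, and the median log2 fold change was 0.88 against 0.03 over all genes. The count was 25 without hemin nilotinib replicate 1, where 8.41% of all genes were higher. It was 13 without mock nilotinib replicate 2, mock nilotinib replicate 3 or hemin nilotinib replicate 2. In those fits 143, 156 and 190 of all genes tested were higher. Without nilotinib, 30 genes of the list were higher and 3 lower, against 25.7% and 27.8% of all genes, with a median of 1.40. These genes, like all lists below, were chosen with earlier results of these data known, and a list is described by its count and median alone.

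OSGIN1 (ENSG00000140961, chromosome 16 from 83948282 to 83966332), which encodes an oxidative-stress-induced growth inhibitor, had the largest rise among genes with at least 100 counts on average and no overlap of the groups. Its levels in replicates 1, 2 and 3, an order used throughout, were 5.17, 3.06 and 4.70 CPM in mock nilotinib and 160.5, 457 and 609 CPM in hemin nilotinib, a log2 fold change of 6.56 (SE 0.41; edgeR, adjusted p = 2.13e-07). The hemin libraries all exceeded the mock libraries by over an order of magnitude, and replicate 1 was the lowest of them. NQO1 (ENSG00000181019, chromosome 16 from 69706996 to 69726951), the quinone reductase used as the classic reporter of NRF2, had 6.16, 6.68 and 4.79 CPM in mock nilotinib and 63.4, 119 and 121 CPM in hemin nilotinib, a log2 fold change of 4.11 (SE 0.25; edgeR, adjusted p = 2.13e-07). HMOX1, the heme oxygenase that opens the heme ring, was scarcely detected without hemin, with 0, 2 and 1 counts in mock nilotinib and 14, 69 and 94 counts in hemin nilotinib. The ratio of its scaled counts was 56.1 with a counting interval of 18.9 to 275, and the call (edgeR, adjusted p = 0.00154) held with any of the 6 libraries left out.

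Ferritin stores the iron that heme oxygenase frees. FTL (ENSG00000087086, chromosome 19 from 48965301 to 48966878), its light chain, had 1820.2, 2139 and 2205 CPM in mock nilotinib and 6072, 10665 and 9728 CPM in hemin nilotinib, a log2 fold change of 2.10 (SE 0.23; edgeR, adjusted p = 0.000234). Every hemin library was above every mock library for FTL. For FTH1, the heavy chain, the levels were 1739, 2073 and 2179.6 CPM in mock nilotinib and 2604, 3432 and 3033 CPM in hemin nilotinib. The groups did not overlap either, but the log2 fold change of 0.60 (edgeR, adjusted p = 0.0624) did not pass the threshold. With the replicate block it passed at 0.60 (adjusted p = 0.0453), and without hemin nilotinib replicate 1 at 0.69 (edgeR, adjusted p = 0.0175). FTH1 lies over a gene on the opposite strand for 62.4% of its exon length, and the strand setting of the counting is not given in the sources used here.

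Enzymes that make and recycle glutathione and thioredoxin followed. GCLM (ENSG00000023909, chromosome 1 from 93885205 to 93909456), the modifier subunit of glutamate-cysteine ligase, had 96.6, 118 and 124 CPM in mock nilotinib and 177, 517 and 578 CPM in hemin nilotinib, a log2 fold change of 1.91 (SE 0.30; edgeR, adjusted p = 0.00258). For TXNRD1 (ENSG00000198431, chromosome 12 from 104215779 to 104350305), thioredoxin reductase, the levels were 144, 153 and 149 CPM in mock nilotinib and 304, 641 and 672 CPM in hemin nilotinib, with a log2 fold change of 1.86 (SE 0.23; edgeR, adjusted p = 0.000509). GSR, glutathione reductase, had 120.1, 125 and 132 CPM in mock nilotinib and 231, 469.7 and 546 CPM in hemin nilotinib, a log2 fold change of 1.73 (SE 0.23; edgeR, adjusted p = 0.001). In all 3 genes replicate 1 was the lowest hemin library and still lay above every mock library. TXN, thioredoxin itself, changed less but more evenly, from 74.5, 75.9 and 74.4 CPM in mock nilotinib and 136, 160.0 and 148 CPM in hemin nilotinib, a log2 fold change of 0.98 (SE 0.12; edgeR, adjusted p = 0.000509). The catalytic subunit GCLC had 55.0, 50.8 and 50.1 CPM in mock nilotinib and 70.9, 76.0 and 67.0 CPM in hemin nilotinib, and its log2 fold change of 0.46 (edgeR, adjusted p = 0.0704) did not pass.

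Transporters and adaptors of the same list also rose. SQSTM1, the autophagy receptor p62, had 253, 293 and 332 CPM in mock nilotinib and 457, 1045 and 1370.4 CPM in hemin nilotinib, a log2 fold change of 1.71 (SE 0.29; edgeR, adjusted p = 0.00459). SLC7A11, the cystine importer, had 113, 89.3 and 65.8 CPM in mock nilotinib and 80.7, 369 and 455 CPM in hemin nilotinib, so that its replicate 1 lay inside the mock range. Its log2 fold change was 1.76 (edgeR, adjusted p = 0.0215), and the call was lost without mock nilotinib replicates 2 or 3 or hemin nilotinib replicates 2 or 3, with an adjusted p of up to 0.108. The efflux pump ABCC3 had 0.279, 0.146 and 0.288 CPM in mock nilotinib and 1.35, 3.65 and 4.51 CPM in hemin nilotinib and a log2 fold change of 3.72 (edgeR, adjusted p = 0.00114). For ABCC2, another efflux pump, raw counts were 5, 4 and 8 in mock and 34, 34 and 55 in hemin nilotinib. SRXN1, sulfiredoxin, shares 84.2% of its 150-base words with an overlapping gene, so its rise of 1.41 (edgeR, adjusted p = 0.0144) cannot be assigned to it alone, and the call was lost without mock nilotinib replicates 2 or 3 or hemin nilotinib replicate 2, with an adjusted p of up to 0.0727. The mRNA of NRF2 itself, NFE2L2, had 45.1, 50.3 and 49.3 CPM in mock nilotinib and 55.3, 67.5 and 72.2 CPM in hemin nilotinib, and its log2 fold change of 0.43 (edgeR, adjusted p = 0.0971) did not pass.

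The promoters of GCLM (chr1:93909381-93909680, minus strand) and TXNRD1 (chr12:104215529-104215828, plus strand) are shown as examples of promoters in this list that hold the core of the antioxidant response element, the site of NRF2 and BACH1 with small MAF proteins. The sequences are from RefSeq on GRCh38.p14, run 5′ to 3′ from 250 bases before to 50 bases after the start of transcription, and have in capitals each match to TGACNNNGC on either strand. The letters occurred in 7 of the 27 promoters of the list that the table holds (25.9%), in 13.6% of all 27305 promoters and 15.1% of those of genes tested, and in 21.1% of the 435 promoters of genes higher with hemin against 15.5% of 328 of genes lower with it. They were also in 23.1% of the promoters of the heat-shock list, in 31.8% of those of the integrated stress response and in 3 of 5 of the metallothioneins. A match is a description of the sequence and not evidence of a bound site.
GCLM: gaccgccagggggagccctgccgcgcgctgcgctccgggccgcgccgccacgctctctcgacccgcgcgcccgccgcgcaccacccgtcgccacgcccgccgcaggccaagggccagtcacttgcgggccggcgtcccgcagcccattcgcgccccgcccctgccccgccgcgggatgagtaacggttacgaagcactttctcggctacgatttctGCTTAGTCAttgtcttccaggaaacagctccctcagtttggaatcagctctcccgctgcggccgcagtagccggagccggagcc
TXNRD1: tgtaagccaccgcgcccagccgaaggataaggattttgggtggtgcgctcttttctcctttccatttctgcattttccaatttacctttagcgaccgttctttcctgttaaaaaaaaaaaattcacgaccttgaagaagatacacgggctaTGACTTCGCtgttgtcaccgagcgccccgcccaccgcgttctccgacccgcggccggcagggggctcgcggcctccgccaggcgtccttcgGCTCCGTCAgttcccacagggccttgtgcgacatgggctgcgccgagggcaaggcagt

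Chaperone genes of the heat-shock response rose alongside. Of 30 heat-shock genes tested, 25 were higher with hemin in nilotinib-treated cells, against 3.52% of all genes, and 0 were lower. Their median log2 fold change was 1.34. The count was 25 without hemin nilotinib replicate 1 as well, and 15, 17 and 18 without mock nilotinib replicate 2, mock nilotinib replicate 3 and hemin nilotinib replicate 2. Within replicate numbers 1, 2 and 3 the median over the list was 0.56, 1.44 and 1.93. Without nilotinib 29 were higher and 1 lower, against 25.7% and 27.8% of all genes, with a median of 3.58. In the test of the difference 28 of 30 had a more negative effect with nilotinib, against 13.0% of all genes.

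HSPA1A (ENSG00000204389, chromosome 6 from 31815464 to 31817946), an inducible HSP70 gene, had 147, 83.4 and 76.2 CPM in mock nilotinib and 332, 2384 and 6788 CPM in hemin nilotinib, a log2 fold change of 4.95 (SE 0.70; edgeR, adjusted p = 0.00132). The 3 hemin libraries ranged over more than an order of magnitude, and the lowest of them was still above every mock library. Without nilotinib its levels were 102, 96.9 and 101 CPM in mock DMSO and 30098, 32563 and 28816 CPM in hemin DMSO, and the hemin effect differed by -3.30 (SE 0.86; edgeR, adjusted p = 0.00886). HSPA1B, its near-identical neighbour, had 88.4, 55.9 and 52.0 CPM in mock nilotinib and 174, 1283 and 4099 CPM in hemin nilotinib, a log2 fold change of 4.82 (SE 0.71; edgeR, adjusted p = 0.00154). HSPA1A and HSPA1B share 63.2% and 70.0% of their 150-base words with each other or an overlapping gene, so the split of reads between them is uncertain. HSPA6 (ENSG00000173110, chromosome 1 from 161524540 to 161526910), an HSP70 gene that is silent in most unstressed cells, had 0.304, 0.233 and 0.375 CPM in mock nilotinib and 1.44, 16.5 and 47.8 CPM in hemin nilotinib, a log2 fold change of 6.16 (SE 0.98; edgeR, adjusted p = 0.00283). It shares 15.2% of its words with the related locus HSPA7.

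Partners of HSP70 followed the same order of libraries. HSPH1 (ENSG00000120694, chromosome 13 from 31134974 to 31162388), the nucleotide exchange factor HSP110, had 42.7, 22.5 and 17.9 CPM in mock nilotinib and 94.0, 292 and 474 CPM in hemin nilotinib, a log2 fold change of 3.37 (SE 0.44; edgeR, adjusted p = 0.001). DNAJB1 (ENSG00000132002, chromosome 19 from 14514770 to 14529770), an HSP40 that hands clients to HSP70, had 86.8, 74.3 and 62.4 CPM in mock nilotinib and 136, 481 and 1227 CPM in hemin nilotinib, a log2 fold change of 3.05 (SE 0.49; edgeR, adjusted p = 0.00287). In both genes hemin replicate 1 was the lowest and replicate 3 the highest of the hemin libraries, without overlap with mock. BAG3, which couples HSP70 to selective autophagy, had 38.4, 38.2 and 46.4 CPM in mock nilotinib and 50.8, 102 and 153 CPM in hemin nilotinib. Its log2 fold change of 1.31 (edgeR, adjusted p = 0.0123) was small beside the 5.17 seen without nilotinib, the difference was -3.85 (SE 0.39; edgeR, adjusted p = 7.28e-06), and the call with nilotinib was lost without mock nilotinib replicate 2, with an adjusted p of up to 0.0719.

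**Figure D2:**
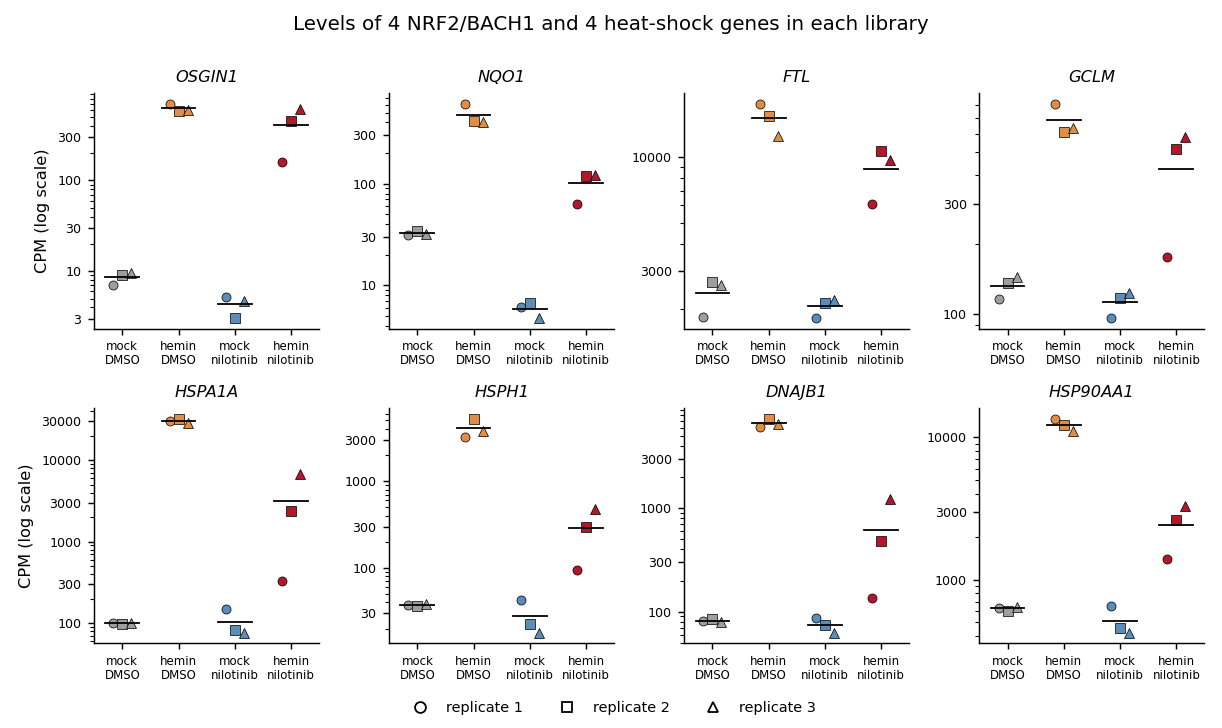
Levels in CPM on a log axis of OSGIN1, NQO1, FTL and GCLM (upper panels) and HSPA1A, HSPH1, DNAJB1 and HSP90AA1 (lower panels) in all 12 libraries, with a symbol for each replicate number and a line at the mean of each group of 3. All 3 hemin nilotinib libraries lie above the mock nilotinib libraries in each panel, replicate 1 (circle) is the lowest of them, and the heat-shock genes stay below their hemin DMSO levels.

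The HSP90 machinery rose as well. HSP90AA1, the inducible HSP90, had 652, 455 and 422 CPM in mock nilotinib and 1402, 2618 and 3291 CPM in hemin nilotinib, a log2 fold change of 2.26 (SE 0.26; edgeR, adjusted p = 0.000311). HSP90AB1, the constitutive HSP90, had 1701, 1526 and 1424 CPM in mock nilotinib and 2537, 3406 and 3868 CPM in hemin nilotinib, a log2 fold change of 1.08 (SE 0.19; edgeR, adjusted p = 0.00557). Both rose in every hemin library. The cochaperones STIP1, AHSA1 and CHORDC1 rose with log2 fold changes of 1.66 (edgeR, adjusted p = 0.00135), 1.28 (edgeR, adjusted p = 0.00109) and 1.95 (edgeR, adjusted p = 0.00154), with no overlap of the groups. DNAJA1, another HSP40, rose by 1.30 (edgeR, adjusted p = 0.00163) on the log2 scale, and the calls of these 6 genes held with any of the 6 libraries left out. HSPA8, the constitutive HSP70, had 814, 560.4 and 443 CPM in mock nilotinib and 1151, 1302 and 1369 CPM in hemin nilotinib and a log2 fold change of 1.07 (edgeR, adjusted p = 0.00866), but the call was lost without mock nilotinib replicates 2 or 3, with an adjusted p of up to 0.0639. HSPA4, a relative of HSPH1, had 156, 145 and 142 CPM in mock nilotinib and 210.2, 246 and 247 CPM in hemin nilotinib, a log2 fold change of 0.66 (edgeR, adjusted p = 0.0147), and the call was lost without mock nilotinib replicates 2 or 3 or hemin nilotinib replicate 2, with an adjusted p of up to 0.0834.

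Small heat-shock proteins and a proteasome partner showed large gaps to the cells without nilotinib. HSPB1 (ENSG00000106211, chromosome 7 from 76302544 to 76304295), a small chaperone that holds unfolded proteins, had 258, 169 and 143 CPM in mock nilotinib and 368, 659.7 and 860.2 CPM in hemin nilotinib, a log2 fold change of 1.73 (SE 0.28; edgeR, adjusted p = 0.00333), and the effect was smaller than without nilotinib by a difference of -3.94 (SE 0.40; edgeR, adjusted p = 8.51e-06). CRYAB (ENSG00000109846, chromosome 11 from 111908565 to 111923722), αB-crystallin, had 0.507, 1.08 and 1.96 CPM in mock nilotinib and 1.41, 6.07 and 10.4 CPM in hemin nilotinib and overlapped between the groups, with a log2 fold change of 2.36 (edgeR, adjusted p = 0.0196) against 7.91 without nilotinib. Its difference of -5.55 (SE 0.77; edgeR, adjusted p = 9.43e-05) was the most negative of the genes named by size, and its call with nilotinib was lost without mock nilotinib replicates 1 or 2 or hemin nilotinib replicates 2 or 3, with an adjusted p of up to 0.0919. ZFAND2A (ENSG00000178381, chromosome 7 from 1152071 to 1160759), an arsenite-inducible partner of the proteasome, had 7.20, 7.64 and 6.60 CPM in mock nilotinib and 19.5, 74.9 and 152 CPM in hemin nilotinib, a log2 fold change of 3.52 (SE 0.47; edgeR, adjusted p = 0.00114), and a difference of -4.10 (SE 0.63; edgeR, adjusted p = 0.000238).

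Chaperone genes were not uniform. The mitochondrial chaperonin subunit HSPE1 had 13.4, 9.66 and 8.94 CPM in mock nilotinib and 20.7, 23.1 and 27.3 CPM in hemin nilotinib, a log2 fold change of 1.15 (SE 0.16; edgeR, adjusted p = 0.00132). Its partner HSPD1 had 229.7, 221 and 201 CPM in mock nilotinib and 299.9, 297 and 274 CPM in hemin nilotinib, and although the groups did not overlap, the log2 fold change of 0.42 (edgeR, adjusted p = 0.123) did not pass. SERPINH1, the collagen chaperone HSP47, had 163, 177 and 171 CPM in mock nilotinib and 146, 385 and 634 CPM in hemin nilotinib, so that replicate 1 lay below all mock libraries. Its log2 fold change of 1.19 (edgeR, adjusted p = 0.0456) did not pass with the replicate block, at 1.11 (adjusted p = 0.0554), and the call was lost without mock nilotinib replicates 1, 2 or 3 or hemin nilotinib replicates 2 or 3, with an adjusted p of up to 0.206. HSF1, the factor that drives this response, had 203, 255 and 268 CPM in mock nilotinib and 181, 181 and 176 CPM in hemin nilotinib, all 3 hemin libraries below mock. That change of -0.43 (edgeR, adjusted p = 0.0813) did not pass, whereas with the block it was -0.42 (adjusted p = 0.0499).

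The promoters of HSPA1A (chr6:31815293-31815592, plus strand) and HSPA6 (chr1:161524290-161524589, plus strand) are shown because these genes had the largest rises of the heat-shock list. They come from the same RefSeq table and window, with capitals for each match to GAANNTTC, the core of the heat-shock element. It occurred in 11 of the 26 promoters of the list present in the table (42.3%), in 6.87% of all promoters and 4.91% of those of genes tested, and in 11.3% of the promoters of genes higher with hemin against 2.74% of those lower with it.
HSPA1A: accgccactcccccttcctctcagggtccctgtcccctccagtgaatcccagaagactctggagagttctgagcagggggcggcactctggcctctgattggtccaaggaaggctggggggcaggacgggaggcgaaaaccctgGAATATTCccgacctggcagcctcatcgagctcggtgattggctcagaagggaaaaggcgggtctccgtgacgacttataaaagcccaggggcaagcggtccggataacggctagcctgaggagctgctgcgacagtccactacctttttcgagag
HSPA6: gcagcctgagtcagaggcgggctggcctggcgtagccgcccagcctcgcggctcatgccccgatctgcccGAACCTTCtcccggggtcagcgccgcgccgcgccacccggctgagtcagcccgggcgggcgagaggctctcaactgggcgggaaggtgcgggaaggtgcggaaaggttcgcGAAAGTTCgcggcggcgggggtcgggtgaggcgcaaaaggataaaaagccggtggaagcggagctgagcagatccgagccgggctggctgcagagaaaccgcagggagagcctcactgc

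About as many subunits of the proteasome, which degrades damaged proteins, passed the threshold as did not. Of 31 tested, 16 were higher, against 3.52% of all genes, 0 were lower and all 31 estimates were above 0, and the list had a median of 0.51 on the log2 scale. In 28 of the 31 the groups did not overlap, against 11.7% of all genes. The number past the threshold was 13 without hemin nilotinib replicate 1, and 5 without mock nilotinib replicate 2. Without mock nilotinib replicate 1, mock nilotinib replicate 3 or hemin nilotinib replicate 2 it was 10, 8 and 8. PSMD14, the deubiquitinase of the lid, had 81.7, 72.8 and 63.4 CPM in mock nilotinib and 141, 139 and 123 CPM in hemin nilotinib, a log2 fold change of 0.89 (SE 0.13; edgeR, adjusted p = 0.0015). PSMD12, another lid subunit, had 60.5, 55.7 and 53.9 CPM in mock nilotinib and 98.9, 112 and 102 CPM in hemin nilotinib, a log2 fold change of 0.88 (SE 0.13; edgeR, adjusted p = 0.00151). These levels were much alike in the 3 hemin libraries, replicate 1 included. PSMA1, a core subunit, and PSMC2, an ATPase of the base, rose by 0.90 (edgeR, adjusted p = 0.00702) and 0.67 (edgeR, adjusted p = 0.00625). Without nilotinib 29 of 31 were higher, against 25.7% of all genes, with a median of 0.83. Of the 8 subunits of the cytosolic chaperonin CCT, 4 were higher with nilotinib and 8 without it, against 3.52% and 25.7% of all genes. Their medians were 0.39 and 0.83. The 4 became 0 without mock nilotinib replicate 2, mock nilotinib replicate 3 or hemin nilotinib replicate 2, and 2 without hemin nilotinib replicate 3, and stayed at 4 without hemin nilotinib replicate 1.

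The integrated stress response separated hemin nilotinib replicate 1 from replicates 2 and 3. Of 26 genes, 5 were higher, against 3.52% of all genes, and 0 lower, with a median log2 fold change of 0.65, and within replicate numbers the medians were -0.62, 0.87 and 1.04. Without replicate 1 of hemin nilotinib 20 were higher, against 8.41% of all genes. The count was 0 without mock nilotinib replicates 2 or 3 or hemin nilotinib replicate 2, and 1 without hemin nilotinib replicate 3. CHAC1, a glutathione-degrading enzyme and ATF4 target, had 4.13, 1.78 and 2.16 CPM in mock nilotinib and 0.719, 24.5 and 31.3 CPM in hemin nilotinib, with a log2 fold change of 2.80 (edgeR, adjusted p = 0.0316), and the call was lost without mock nilotinib replicates 2 or 3 or hemin nilotinib replicates 2 or 3, with an adjusted p of up to 0.15. ASNS, asparagine synthetase, had 10.4, 7.76 and 10.1 CPM in mock nilotinib and 2.62, 30.2 and 68.7 CPM in hemin nilotinib, and its log2 fold change was 1.85 (edgeR, adjusted p = 0.0851) with all libraries and 2.40 (edgeR, adjusted p = 3.53e-06) without hemin nilotinib replicate 1. DDIT4, an inhibitor of mTOR signalling, had 75.6, 53.0 and 42.9 CPM in mock nilotinib and 9.28, 145 and 161 CPM in hemin nilotinib. In these 3 genes replicate 1 lay below all mock libraries and replicates 2 and 3 above them. ASNS and DDIT4 overlap other genes over 44.6% of their exon length on the same strand and 41.2% on the opposite strand.

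The transcription factors of this response were no more even. ATF3 had 17.5, 15.6 and 14.3 CPM in mock nilotinib and 8.39, 40.7 and 41.0 CPM in hemin nilotinib, a log2 fold change of 0.93 (edgeR, adjusted p = 0.142), and 1.37 (edgeR, adjusted p = 3.11e-06) without hemin nilotinib replicate 1. DDIT3, which encodes CHOP, had 28.3, 23.0 and 19.4 CPM in mock nilotinib and 13.9, 56.9 and 62.2 CPM in hemin nilotinib, with 0.91 (edgeR, adjusted p = 0.132) and 1.34 (edgeR, adjusted p = 1.47e-05). Both again had their lowest level in replicate 1. PPP1R15A, which directs the phosphatase of eIF2α, did not overlap between groups at 268, 292 and 302 CPM in mock nilotinib and 306, 533 and 579 CPM in hemin nilotinib, with a log2 fold change of 0.72 (edgeR, adjusted p = 0.0359), and the call was lost without mock nilotinib replicates 1, 2 or 3 or hemin nilotinib replicates 2 or 3, with an adjusted p of up to 0.143. The amino acid transporters SLC38A2 and SLC7A5 rose by 0.67 (edgeR, adjusted p = 0.015) and 1.10 (edgeR, adjusted p = 0.0387). The call of SLC38A2 was lost without mock nilotinib replicates 2 or 3 or hemin nilotinib replicate 2, with an adjusted p of up to 0.0909. That of SLC7A5 did not pass with the replicate block, at 1.06 (adjusted p = 0.0516), and was lost without mock nilotinib replicates 2 or 3 or hemin nilotinib replicates 2 or 3, with an adjusted p of up to 0.171. Of 21 genes of endoplasmic reticulum stress 2 were higher, against 3.52% of all genes. Without hemin nilotinib replicate 1 it was 8, against 8.41% of all genes, and without any other single nilotinib library it was 0. In DMSO 14 were higher and 2 lower, against 25.7% and 27.8% of all genes.

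Metallothioneins bind zinc and other metals. Of 5 genes tested of 10 in the list, 2 were higher with hemin in nilotinib-treated cells, against 3.52% of all genes. It was 4 with the replicate block and 4 without hemin nilotinib replicate 1, against 4.22% and 8.41% of all genes. Without mock nilotinib replicates 2 or 3 or hemin nilotinib replicate 2 it was 0, and without mock nilotinib replicate 1 it was 1. MT2A had 11.7, 19.2 and 14.6 CPM in mock nilotinib and 22.9, 105 and 48.9 CPM in hemin nilotinib, with a log2 fold change of 1.96 (edgeR, adjusted p = 0.0219), and the call was lost without mock nilotinib replicates 1, 2 or 3 or hemin nilotinib replicate 2, with an adjusted p of up to 0.128. For MT1X the raw counts were 2, 1 and 2 in mock and 4, 87 and 65 in hemin nilotinib, a ratio of scaled counts of 29.7 with a counting interval of 12.4 to 92.6, and the call was lost without mock nilotinib replicates 2 or 3 or hemin nilotinib replicate 2, with an adjusted p of up to 0.0859. Without nilotinib their log2 fold changes were -0.16 and -0.10, and the differences were 2.12 (SE 0.63; edgeR, adjusted p = 0.0193) and 4.88 (SE 1.28; edgeR, adjusted p = 0.00966). The fitted fold of a gene as low as MT1X depends on the prior count.

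Some mitotic genes were higher with hemin in nilotinib-treated cells. Of 30 tested, 8 were higher, against 3.52% of all genes, 0 were lower and all 30 estimates were above 0, with a median of 0.41. Without nilotinib 3 were higher and 12 lower, against 25.7% and 27.8% of all genes, with a median of -0.23, and 14 of 30 had a more positive effect with nilotinib, against 17.1% of all genes. The 8 stayed 8 without hemin nilotinib replicate 1, and became 5 without mock nilotinib replicate 1, 1 without mock nilotinib replicate 2 or hemin nilotinib replicate 2, 2 without mock nilotinib replicate 3. With hemin nilotinib replicate 3 left out it was 12. KIF20A, a kinesin of cytokinesis, had 68.1, 60.7 and 53.9 CPM in mock nilotinib and 101, 130.1 and 97.5 CPM in hemin nilotinib, a log2 fold change of 0.85 (SE 0.14; edgeR, adjusted p = 0.00404), and the difference from the effect without nilotinib was 1.84 (SE 0.20; edgeR, adjusted p = 1.61e-05). AURKA, a mitotic kinase, had 82.3, 73.1 and 77.4 CPM in mock nilotinib and 124, 134 and 113 CPM in hemin nilotinib, a log2 fold change of 0.67 (edgeR, adjusted p = 0.00782), and the call was lost without mock nilotinib replicate 2 or hemin nilotinib replicate 2, with an adjusted p of up to 0.0623. CCNB1, cyclin B1, had 102, 95.2 and 79.3 CPM in mock nilotinib and 156, 161 and 111 CPM in hemin nilotinib, a log2 fold change of 0.63 (edgeR, adjusted p = 0.0416), and the call was lost without mock nilotinib replicates 1, 2 or 3 or hemin nilotinib replicate 2, with an adjusted p of up to 0.183. The groups did not overlap in any of these 3 genes. MKI67, the proliferation marker, had 479, 438 and 385 CPM in mock nilotinib and 669.7, 570.5 and 487 CPM in hemin nilotinib and did not pass at 0.41 (edgeR, adjusted p = 0.136), while the difference of its effects was 1.11 (SE 0.22; edgeR, adjusted p = 0.00163). DNA replication genes, by contrast, had 0 higher and 1 lower of 36, with a median of -0.03, and 1 higher and 3 lower without hemin nilotinib replicate 1.

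Immediate-early genes and feedback regulators of ERK signalling gave 5 higher and 0 lower of 23, against 3.52% and 2.28% of all genes, with a median of 0.30. The 5 became 8 without hemin nilotinib replicate 1, 3 without mock nilotinib replicate 1 or hemin nilotinib replicate 3, and 2 without mock nilotinib replicates 2 or 3 or hemin nilotinib replicate 2. FOSL1, a subunit of AP-1, had 8.09, 6.48 and 5.77 CPM in mock nilotinib and 13.6, 23.4 and 26.5 CPM in hemin nilotinib, a log2 fold change of 1.64 (SE 0.23; edgeR, adjusted p = 0.00132). DUSP1, a MAP kinase phosphatase, had 35.0, 31.3 and 31.5 CPM in mock nilotinib and 54.1, 55.2 and 63.8 CPM in hemin nilotinib, a log2 fold change of 0.82 (SE 0.13; edgeR, adjusted p = 0.00246). Its effect differed from that without nilotinib by -3.18 (SE 0.18; edgeR, adjusted p = 6.76e-08). The groups stood apart in both genes. IER3, an early response gene, rose by 0.80 (edgeR, adjusted p = 0.0218), and the call was lost without mock nilotinib replicates 1, 2 or 3 or hemin nilotinib replicates 2 or 3, with an adjusted p of up to 0.0896. MYC, the growth-promoting transcription factor, had 62.8, 60.1 and 54.5 CPM in mock nilotinib and 85.3, 85.1 and 73.3 CPM in hemin nilotinib, with a log2 fold change of 0.46 (edgeR, adjusted p = 0.0443), and the call was lost without mock nilotinib replicates 1, 2 or 3 or hemin nilotinib replicate 2, with an adjusted p of up to 0.189.

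Few erythroid genes passed the threshold when hemin was added to nilotinib-treated cells, where 3.52% of all genes were higher and 2.28% lower. The list of globins and their chaperone holds 11 genes, of which 7 were higher without nilotinib, against 25.7% of all genes. With nilotinib 1 was higher (9.09%) and 0 lower, also without hemin nilotinib replicate 1, with a median of 0.40. HBD, δ-globin, was that gene, with 9.51, 9.33 and 9.92 CPM in mock nilotinib and 21.6, 25.3 and 17.4 CPM in hemin nilotinib, a log2 fold change of 1.16 (SE 0.22; edgeR, adjusted p = 0.00862), and its call was lost without mock nilotinib replicate 2 or hemin nilotinib replicate 2, with an adjusted p of up to 0.0561. HBZ, the embryonic ζ-globin, had 2972, 3273 and 2493 CPM in mock nilotinib and 8630.2, 5236 and 3215 CPM in hemin nilotinib. Replicate 3 lay within the mock range and replicate 1 was the highest of the 6 libraries, and the log2 fold change of 0.97 (edgeR, adjusted p = 0.0965) did not pass. HBA1, α-globin, had 1249, 1869 and 1539.6 CPM in mock nilotinib and 4133, 1465 and 1132 CPM in hemin nilotinib, a log2 fold change of 0.53 (edgeR, adjusted p = 0.423) that became -0.26 (edgeR, adjusted p = 0.49) without hemin nilotinib replicate 1. HBA2, its near-identical copy, had 2221, 3301 and 3015 CPM in mock nilotinib and 4209.7, 4176 and 4354 CPM in hemin nilotinib, with no overlap but a log2 fold change of 0.58 (edgeR, adjusted p = 0.176). HBA1 and HBA2 share 78.5% and 78.3% of their words, and HBZ shares 34.3% with related genes.

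No gene of heme biosynthesis and no erythroid transcription factor passed the threshold in edgeR with nilotinib. Of 9 heme biosynthesis genes, 0 passed by DESeq2 and 0 had an unadjusted p under 0.05 as well, while limma-voom with quality weights called 1 higher and 3 lower, and the median was -0.04, against 1 higher and 6 lower without nilotinib, where 27.8% of all genes were lower. Without hemin nilotinib replicate 1 the count with nilotinib was 0 too. ALAS2, the erythroid enzyme that starts heme synthesis, had 2419.9, 3352 and 3223 CPM in mock nilotinib and 2730.0, 2321 and 1912 CPM in hemin nilotinib and a log2 fold change of -0.37 (edgeR, adjusted p = 0.39). Of 20 erythroid transcription factors 0 passed by DESeq2 too, 1 was lower with the replicate block, and 1 was higher and 4 lower at an unadjusted p under 0.05 in edgeR, against 3 and 8 called by limma-voom. Leaving out hemin nilotinib replicate 1 gave 1 higher and 1 lower. Their median was -0.02, whereas 2 were higher and 15 lower without nilotinib at a median of -1.41. The test of the difference was positive for 15 of the 20, against 17.1% of all genes. GFI1B, a repressor needed for erythroid maturation, had 374, 479.8 and 509 CPM in mock nilotinib and 407, 358 and 313 CPM in hemin nilotinib with nilotinib. Without it the levels were 129 to 149 CPM in mock DMSO and 9.01 to 17.2 CPM in hemin DMSO. Hemin changed it by -0.34 (edgeR, adjusted p = 0.323) in the former and by -3.46 in the latter, a difference of 3.13 (SE 0.28; edgeR, adjusted p = 3.15e-06). GATA1, the master erythroid factor, had 355, 373 and 399.8 CPM in mock nilotinib and 330.4, 306 and 315 CPM in hemin nilotinib, with a log2 fold change of -0.25 (edgeR, adjusted p = 0.329) and a difference of 0.66 (SE 0.20; edgeR, adjusted p = 0.0188).

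**Figure D3:**
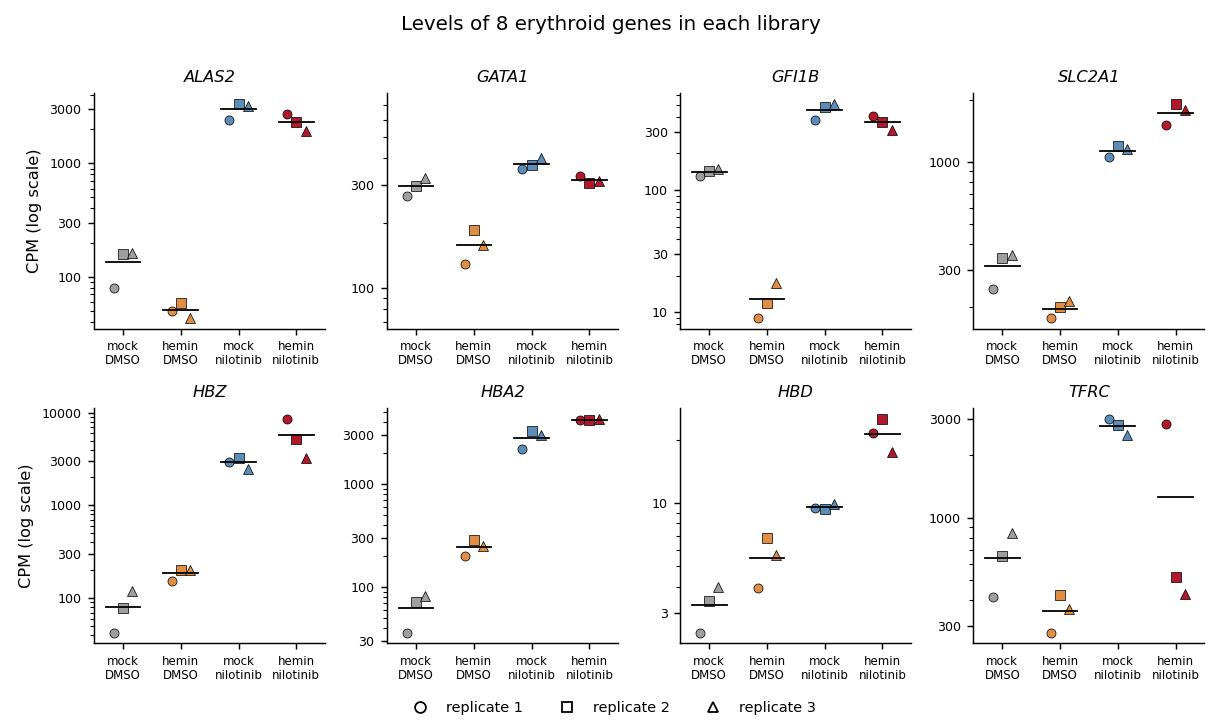
Levels in CPM on a log axis of ALAS2, GATA1, GFI1B, SLC2A1, HBZ, HBA2, HBD and TFRC in all 12 libraries, with a symbol for each replicate number and a line at the mean of each group of 3. Hemin lowers GFI1B in DMSO to 9.01 to 17.2 CPM and leaves it at 313 to 407 CPM in nilotinib, and TFRC splits hemin nilotinib replicate 1 from replicates 2 and 3.

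Iron uptake and storage gave 1 gene higher (FTL, 5.88%) and 1 lower of 17, against 3.52% and 2.28% of all genes. With the replicate block 3 were higher and 1 lower. Without hemin nilotinib replicate 1 it was 3 higher and 2 lower, without mock nilotinib replicate 1 it was 2 higher and 2 lower, and without any other single library 1 was higher and 0 lower. TFRC, the transferrin receptor whose mRNA is degraded when iron is plentiful, had 3006, 2809 and 2503 CPM in mock nilotinib and 2845, 519 and 429 CPM in hemin nilotinib. Replicate 1 lay within the mock range and replicates 2 and 3 far below it. The log2 fold change was -1.13 (edgeR, adjusted p = 0.197) with all libraries and -2.55 (edgeR, adjusted p = 3.01e-06) without hemin nilotinib replicate 1. PCBP2, an iron chaperone that also binds RNA, had 244, 320.5 and 345 CPM in mock nilotinib and 188, 216 and 227 CPM in hemin nilotinib, all hemin libraries below mock, with a log2 fold change of -0.53 (edgeR, adjusted p = 0.0475), and the call was lost without mock nilotinib replicates 2 or 3 or hemin nilotinib replicates 1, 2 or 3, with an adjusted p of up to 0.209.

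Of 24 red cell membrane genes 1 was higher (4.17%), the glucose transporter SLC2A1, against 3.52% of all genes. Without hemin nilotinib replicate 1, 1 was higher and 1 lower. In DMSO 2 were higher and 17 lower, against 25.7% and 27.8% of all genes. SLC2A1 had 1059.6, 1196 and 1153 CPM in mock nilotinib and 1502, 1913 and 1787 CPM in hemin nilotinib, with a log2 fold change of 0.61 (edgeR, adjusted p = 0.038) and a difference of 1.29 (SE 0.23; edgeR, adjusted p = 0.000709). The groups did not overlap, but the call was lost without mock nilotinib replicates 1, 2 or 3 or hemin nilotinib replicates 2 or 3, with an adjusted p of up to 0.148. In the list of erythropoietin receptor and JAK2 signalling, 1 gene was higher and 3 lower of 17, against 3.52% and 2.28% of all genes, with a median of -0.16. The count was 3 higher and 4 lower without hemin nilotinib replicate 1. PIM2, a STAT5-responsive kinase, had 36.7, 32.4 and 28.4 CPM in mock nilotinib and 62.0, 54.1 and 46.8 CPM in hemin nilotinib and rose by 0.74 (edgeR, adjusted p = 0.00896), and the call was lost without mock nilotinib replicates 2 or 3, with an adjusted p of up to 0.0685. SOCS2, a feedback inhibitor of cytokine receptors, had 9.69 to 10.5 CPM in mock nilotinib and 5.66 to 8.16 CPM in hemin nilotinib, a log2 fold change of -0.58 (edgeR, adjusted p = 0.0405), and its call was lost without mock nilotinib replicates 1, 2 or 3 or hemin nilotinib replicates 2 or 3, with an adjusted p of up to 0.159. KIT, the stem cell factor receptor, had 2.56, 4.32 and 3.78 CPM in mock nilotinib and 1.52, 2.09 and 1.61 CPM in hemin nilotinib and -1.03 (edgeR, adjusted p = 0.0417), and OSM, the cytokine oncostatin M, had 1.55, 2.71 and 2.02 CPM in mock nilotinib and 0.690, 0.906 and 0.865 CPM in hemin nilotinib and -1.34 (edgeR, adjusted p = 0.0267). These 3 lay below mock in every hemin library, and the calls of KIT and OSM were each lost without mock nilotinib replicates 2 or 3 or hemin nilotinib replicates 2 or 3, with adjusted p up to 0.187 and 0.161.

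Among the other genes with the largest rises, several belong to no list. NMRAL2P (ENSG00000171658, chromosome 3 from 185959943 to 185980872), a transcribed pseudogene, had 0.609, 0.263 and 0.404 CPM in mock nilotinib and 4.92, 6.75 and 8.76 CPM in hemin nilotinib, a log2 fold change of 3.98 (SE 0.49; edgeR, adjusted p = 0.000552). HTRA3, a secreted serine protease, had 4.79, 4.46 and 3.32 CPM in mock nilotinib and 13.4, 46.6 and 53.3 CPM in hemin nilotinib, a log2 fold change of 3.17 (SE 0.39; edgeR, adjusted p = 0.000552). SCRN1, secernin, had 1.17, 0.525 and 0.778 CPM in mock nilotinib and 3.56, 9.44 and 9.72 CPM in hemin nilotinib, a log2 fold change of 3.19 (SE 0.35; edgeR, adjusted p = 0.000234). All 3 rose without nilotinib too, by 3.76, 3.99 and 3.92. The noncoding transcripts AP001972.4 and AP000648.3 rose by 4.35 (edgeR, adjusted p = 1.98e-05) and 3.14 (edgeR, adjusted p = 0.0015), and MIR29B2CHG, the host transcript of a miR-29 cluster, by 2.98 (edgeR, adjusted p = 0.00132). RF00012, a copy of the U3 small nucleolar RNA, rose by 3.02 (edgeR, adjusted p = 0.00317), and none of its 150-base words occurs in another gene of the annotation.

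The largest falls were smaller than the largest rises. ID3 (ENSG00000117318, chromosome 1 from 23557918 to 23559794), an inhibitor of bHLH transcription factors, had 6.01, 4.20 and 5.31 CPM in mock nilotinib and 0.661, 0.384 and 1.15 CPM in hemin nilotinib, a log2 fold change of -2.80 (SE 0.31; edgeR, adjusted p = 0.000234). PDK4, a kinase that restrains pyruvate oxidation, had 6.59, 10.7 and 16.3 CPM in mock nilotinib and 1.64, 2.31 and 2.92 CPM in hemin nilotinib, a log2 fold change of -2.29 (SE 0.32; edgeR, adjusted p = 0.00132). PANX2 (ENSG00000073150, chromosome 22 from 50170731 to 50180294), a pannexin, had 413, 441 and 504 CPM in mock nilotinib and 155, 141 and 161 CPM in hemin nilotinib, a log2 fold change of -1.57 (SE 0.14; edgeR, adjusted p = 2.97e-05). The 3 hemin libraries were close to each other for PANX2, replicate 1 included. GDPD3, SCARF1, SORBS3, PIK3IP1 and TLCD2 fell with log2 fold changes of -2.02, -1.63, -1.62, -1.60 and -1.57, and these calls, like those of ID3, PDK4 and PANX2, held with any of the 6 libraries left out. SCARF1, a scavenger receptor, had 31.5, 31.0 and 36.1 CPM in mock nilotinib and 15.2, 6.92 and 9.68 CPM in hemin nilotinib. PIK3IP1, an inhibitor of PI3K signalling, had 22.0, 45.2 and 44.8 CPM in mock nilotinib and 8.59, 14.8 and 13.5 CPM in hemin nilotinib. Both fell in all hemin libraries.

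The other falls chosen by the same rule, of FOXO6, FBLN2, TPM2, CSPG4, GDF2, SFRP5 and GP1BA, had log2 fold changes of -1.67, -1.64, -1.64, -1.62, -1.55, -1.51 and -1.47. Their calls depended on single libraries. For FOXO6 the call was lost without hemin nilotinib replicate 2, with an adjusted p of up to 0.0577. For FBLN2 it was lost without mock nilotinib replicate 2 or hemin nilotinib replicate 2, with an adjusted p of up to 0.0909, and for SFRP5 it was lost without mock nilotinib replicates 2 or 3, with an adjusted p of up to 0.0717. For TPM2, CSPG4, GDF2 and GP1BA it was lost without mock nilotinib replicates 2 or 3 or hemin nilotinib replicate 2, with adjusted p up to 0.133. GDF2, the ligand BMP9, had 4.31, 7.99 and 10.5 CPM in mock nilotinib and 1.84, 2.96 and 2.94 CPM in hemin nilotinib, and TPM2, a tropomyosin, had 7.05, 13.4 and 18.5 CPM in mock nilotinib and 2.99, 3.62 and 5.82 CPM in hemin nilotinib. In both genes the mock libraries themselves differed by over 2-fold.

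Several further processes that hemin lowered without nilotinib gave few or no calls with it. The 13 protein-coding mRNAs of the mitochondrial genome had a median log2 fold change of 0.17 with 0 past the threshold in edgeR or DESeq2, 0 at an unadjusted p under 0.05 and 4 higher by limma-voom, against -1.99 with 12 lower without nilotinib, where 27.8% of all genes were lower. The median with nilotinib became -0.04 without hemin nilotinib replicate 1 and 0.41 without hemin nilotinib replicate 3. All genes of the mitochondrial chromosome, these mRNAs included, held 7.60, 6.22 and 5.24% of all counts in mock nilotinib. In hemin nilotinib they held 8.83, 7.03 and 5.20%. Ribosome biogenesis had 0 higher and 1 lower of 30 with nilotinib, against 3.52% and 2.28% of all genes. It had 0 and 2 without hemin nilotinib replicate 1. In DMSO 20 of its genes were lower, against 27.8% of all genes. Cholesterol synthesis and uptake had 2 higher of 23 (8.7%), against 3.52% of all genes. It had 2 also without hemin nilotinib replicate 1, but 1 or 0 without any of the other 5 libraries. In DMSO 16 were lower, against 27.8% of all genes. HMGCS1, an early enzyme of the pathway and among those higher, had 60.3, 61.0 and 73.6 CPM in mock nilotinib and 102, 89.3 and 113 CPM in hemin nilotinib, with a log2 fold change of 0.64 (edgeR, adjusted p = 0.0232), and the call was lost without mock nilotinib replicates 1, 2 or 3 or hemin nilotinib replicate 3, with an adjusted p of up to 0.118.

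Of 21 genes of glycolysis 3 were higher, PGK1, SLC2A1 and PDK1, against 3.52% of all genes. PGK1, which makes ATP in the pathway, had 147, 139.7 and 145 CPM in mock nilotinib and 219.7, 264 and 177 CPM in hemin nilotinib with 0.61 (edgeR, adjusted p = 0.0418), and PDK1, which restrains pyruvate oxidation, had 32.9, 40.4 and 41.4 CPM in mock nilotinib and 52.1, 63.6 and 53.4 CPM in hemin nilotinib with 0.56 (edgeR, adjusted p = 0.024). Their calls rested on single libraries. That of PGK1 was lost without mock nilotinib replicates 1, 2 or 3 or hemin nilotinib replicate 2, with an adjusted p of up to 0.193, and that of PDK1 was lost without mock nilotinib replicates 1, 2 or 3 or hemin nilotinib replicate 2, with an adjusted p of up to 0.115. The count was 5 higher and 1 lower with the replicate block. It became 8 without hemin nilotinib replicate 1, 1 without mock nilotinib replicate 1, and 0 without mock nilotinib replicates 2 or 3 or hemin nilotinib replicate 2.

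Interferon-stimulated and MHC class I genes were the list with the lowest median among lists of over 20 genes, at -0.42, with 0 higher and 3 lower of 26, against 2.28% of all genes lower, and the same counts without hemin nilotinib replicate 1. In 13 of the 26 the 3 hemin libraries lay below the 3 mock libraries, against 11.6% of all genes. OAS3, an antiviral RNA sensor, had 159.6, 186 and 147 CPM in mock nilotinib and 119.6, 101 and 68.2 CPM in hemin nilotinib, with -0.77 (edgeR, adjusted p = 0.0247). IFIT3, an interferon-induced protein, had 7.86, 12.3 and 13.4 CPM in mock nilotinib and 5.75, 7.14 and 5.96 CPM in hemin nilotinib, with -0.83 (edgeR, adjusted p = 0.0444). PSMB9, a subunit of the immunoproteasome, had 3.88, 5.08 and 5.59 CPM in mock nilotinib and 1.75, 2.44 and 2.01 CPM in hemin nilotinib, with -1.23 (edgeR, adjusted p = 0.0142). All 3 were also lower with hemin in DMSO, by log2 fold changes of -1.71, -2.31 and -1.39. The call of OAS3 was lost without mock nilotinib replicates 2 or 3 or hemin nilotinib replicates 2 or 3, with an adjusted p of up to 0.128, that of IFIT3 was lost without mock nilotinib replicates 2 or 3 or hemin nilotinib replicates 2 or 3, with an adjusted p of up to 0.202, and that of PSMB9 was lost without mock nilotinib replicates 2 or 3, with an adjusted p of up to 0.0774. The count became 0 without mock nilotinib replicates 2 or 3 and 1 without hemin nilotinib replicates 2 or 3.

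Other lists held few called genes. Of 23 genes of the ZAK, p38 and NLRP1 pathway, 26 cell cycle inhibitors and G1 cyclins, 24 genes of terminal maturation, 20 aminoacyl-tRNA synthetases and 9 heme transporters, 0 passed in either direction in edgeR. At an unadjusted p under 0.05 these lists held 6, 4, 4, 1 and 2 genes, and DESeq2 called 2, 1, 0, 1 and 0 of them. Without hemin nilotinib replicate 1, 6 of the synthetases were higher, 2 genes were higher and 1 lower in the p38 list, 1 higher and 2 lower among the cell cycle genes, 2 higher in terminal maturation and 0 among heme transporters. Autophagy and lysosome genes gave 3 higher (9.38%) and 1 lower of 32. Without nilotinib 20 were higher and 1 lower, against 25.7% and 27.8% of all genes. Antioxidant enzymes gave 2 higher of 20, serine and one-carbon metabolism 1 higher (5.88%) and 1 lower of 17, fatty acid synthesis 1 higher of 12 (8.33%), and the BCL2 family 1 lower of 15. Reference genes gave 2 higher of 12 (16.7%). Over all genes 3.52% were higher and 2.28% lower, and 8.41% and 4.91% without hemin nilotinib replicate 1. Without that library the numbers higher and lower were 5 and 1 for autophagy, 3 and 1 for antioxidant enzymes, and 5 and 1 for serine metabolism. They were 1 and 2 for fatty acid synthesis, 1 and 1 for the BCL2 family, and 3 and 0 for reference genes. Other omissions lowered some counts. Without mock nilotinib replicates 2 or 3 or hemin nilotinib replicate 2, 1 autophagy gene was higher. Of the serine and reference lists 0 genes were then higher.

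**Figure D4:**
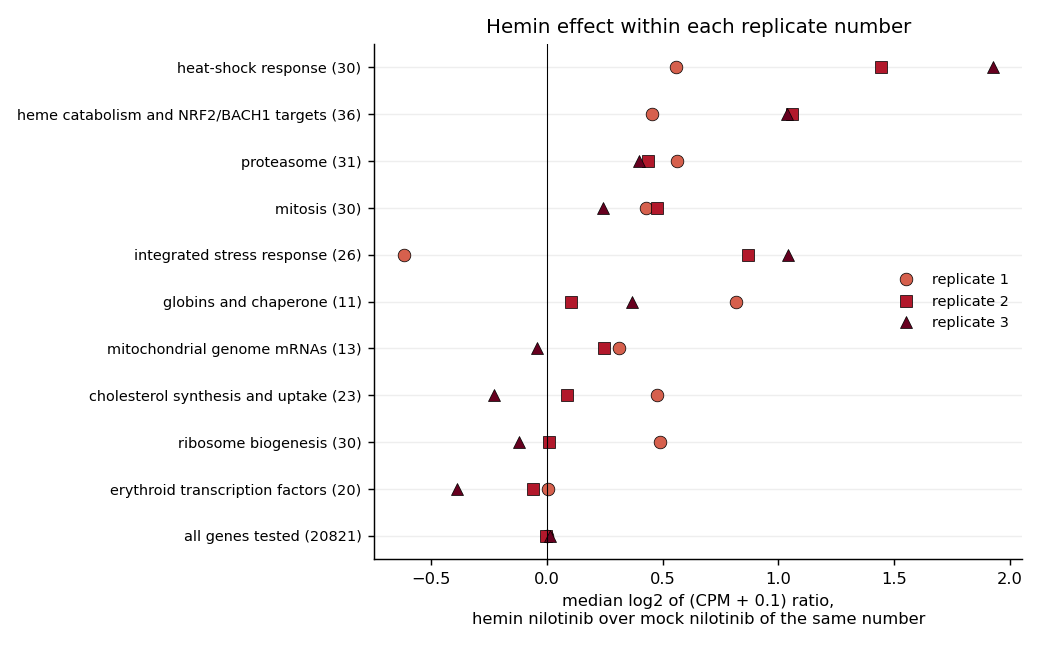
Median log2 ratio of hemin nilotinib to mock nilotinib of the same replicate number, on CPM + 0.1, over the genes of 10 lists and over all genes, with a symbol for each number. The integrated stress response lies at -0.62 in number 1 and at 0.87 and 1.04 in numbers 2 and 3, while the proteasome lies above 0 in all 3.

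Hemin raised 42 genes with nilotinib that it lowered without it, and lowered 26 that it raised without it. Among genes called with nilotinib and in the test of the difference that averaged at least 100 counts over the 12 libraries, the most positive differences were those of AC072022.2, KLHDC7B, GDF2, SH3TC1 and OR2AT4. AC072022.2, an antisense transcript that overlaps BCL6 over 27.8% of its exons, had 0 counts in each mock nilotinib library and 3, 26 and 93 counts in hemin nilotinib. The mean of its hemin libraries was 11.9-fold above a floor of 3 counts per mock library, but replicate 1 was itself at 3 counts. GDF2 fell in both, by -1.55 with nilotinib and -5.76 without it. KLHDC7B had 1, 0 and 1 counts against 4, 5 and 29. With so few counts in the nilotinib libraries, AC072022.2 and KLHDC7B reached the average of 100 counts only through the DMSO libraries. SH3TC1 had 0.178, 0.438 and 0.115 CPM in mock nilotinib and 0.575, 2.75 and 2.17 CPM in hemin nilotinib, a log2 fold change of 2.91 (edgeR, adjusted p = 0.00697) and -1.21 without nilotinib. OR2AT4, listed as an olfactory receptor gene, had 6.54, 7.35 and 7.78 CPM in mock nilotinib and 8.02, 19.2 and 24.5 CPM in hemin nilotinib, a log2 fold change of 1.26 (edgeR, adjusted p = 0.0292), and -2.26 without nilotinib. The calls of KLHDC7B and OR2AT4 with nilotinib were lost without any mock nilotinib library or hemin nilotinib replicate 3, and that of OR2AT4 also without hemin nilotinib replicate 2, with adjusted p up to 0.168 and 0.113.

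By the same rule, the most negative differences were those of CRYAB, TUBB3, ZFAND2A, HSPB1 and BAG3. TUBB3, a neuronal tubulin, had 0.457, 0.379 and 0.346 CPM in mock nilotinib and 0.316, 1.76 and 2.29 CPM in hemin nilotinib, a log2 fold change of 1.89 (edgeR, adjusted p = 0.0461) against 6.20 without nilotinib, and a difference of -4.31 (SE 0.75; edgeR, adjusted p = 0.000617). Its groups overlapped, its call did not pass with the replicate block, at 1.76 (adjusted p = 0.0512), and it was lost without mock nilotinib replicates 1, 2 or 3 or hemin nilotinib replicates 2 or 3, with an adjusted p of up to 0.163. An overlapping gene on the same strand covers 35.8% of the exons of TUBB3. The other 4 belong to the heat-shock list or, for ZFAND2A, were described with it.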

How the data were processed

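RNA was sequenced from K562 cells in 12 libraries, of which the 6 with nilotinib are described. Total RNA was read as 150-base pairs. The authors deposited raw read counts per gene, without normalization, which every count test used as deposited. They also deposited FPKM, in which counts per kilobase are divided by DESeq2 size factors, used only in alternatives. Their condition means of FPKM were left out. The submitters' processing notes name GRCh38.p12, DESeq2 and DESeq. The aligner, the counting program and its strand setting are not given in the sources used here. Gene positions are those of the deposited annotation on GRCh38.

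Counts were fitted in edgeR 4.0.16 (R 4.3.3) with TMM factors. Genes were kept by filterByExpr with a minimum count of 10, and the 12 libraries shared a model with a mean per group. The contrasts were hemin against mock with nilotinib, the same without it, and their difference, at an adjusted p of 0.05 (quasi-likelihood test, Benjamini-Hochberg). Alternatives used DESeq2 1.42.0, limma 3.58.1 (voom with sample quality weights, or trend on log2(FPKM + 1) and log2(FPKM + 0.1)), other scaling and filters, a 2-fold minimum, the 6 libraries alone, and each library left out. The procedure was run on simulated counts with known changes. The simulation gave every library the same spread and set none apart, so it does not cover a library like hemin nilotinib replicate 1. All gene columns mapped to a sample.

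The labels number the replicates. Departures from the group mean, compared between libraries of equal number, correlated at 0.263, 0.199 and 0.254 with nilotinib and at 0.0989, 0.104 and 0.0849 in DMSO. On these labels and modest correlations the numbers were taken to pair the libraries with nilotinib. The main model nevertheless holds no block for the number, and the block is an alternative. Replicates differed by more than counting noise.

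The genes named are the 15 largest rises and falls among called genes averaging 100 counts or more whose groups did not overlap, the 5 largest differences in each direction among genes called there and with nilotinib that averaged 100 counts or more over 12 libraries, and members of 37 lists. Members and lists were chosen with earlier results of these data known. Promoters came from RefSeq, with an entry for 79 of 106 symbols looked up. Counting intervals cover counting error only. Words of 150 bases were compared between transcripts of GENCODE 29. Some members of the lists are counted but not reported here by name. Figures were drawn with matplotlib 3.10.9.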

Additional observations from a re-analysis of the deposited data

Results flagged for a closer look

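The response to hemin differed between cells with and without nilotinib, by the test of the difference itself in edgeR, for 65 of the genes considered by name. The values are the log2 effect with nilotinib minus the log2 effect without it, and their adjusted p lay between 6.76e-08 (DUSP1) and 0.0432 (FTH1). These genes include some chosen by this very difference.

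Among the genes that differed, those of heat shock and the proteasome had negative values. HSPA6, PSMD12, PSMA1 and PSMB9, named above, were not among them. For the HSP70 system they were -3.30 for HSPA1A, -2.99 for HSPA1B, -1.61 for HSPA8, -0.66 for HSPA4, -3.40 for HSPH1, -3.31 for DNAJB1, -1.99 for DNAJA1 and -3.85 for BAG3. For the HSP90 system they were -2.04 for HSP90AA1, -1.70 for HSP90AB1, -1.57 for STIP1, -1.65 for AHSA1 and -1.64 for CHORDC1. Small and organellar chaperones had -3.94 for HSPB1, -5.55 for CRYAB, -1.58 for HSPD1, -1.55 for HSPE1 and -3.18 for SERPINH1, and genes of the proteasome and its partners had -4.10 for ZFAND2A, -0.88 for PSMD14 and -0.85 for PSMC2.

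Of 36 NRF2/BACH1 genes, 8 had a negative difference, against 13.0% of all genes, and 2 a positive one, KEAP1 (0.75) and BACH1 (0.76). The negative values named here were -2.21 for ABCC2, -1.39 for TXNRD1, -1.32 for SQSTM1, -0.93 for GCLC and -0.72 for FTH1. The stress-response genes ATF3, PPP1R15A and SLC38A2 had -2.53, -2.05 and -0.61, and the early response genes DUSP1 and IER3 had -3.18 and -1.54. The metallothioneins went the other way, at 4.88 for MT1X and 2.12 for MT2A.

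Genes of division and growth had positive values, 1.84 for KIF20A, 1.31 for CCNB1, 1.11 for MKI67 and 0.71 for MYC. So did erythroid genes and cytokine signalling genes, 3.13 for GFI1B, 0.66 for GATA1, 1.04 for ALAS2, 2.01 for PIM2 and 1.42 for SOCS2, whereas HBA2 had -1.39 and OSM -3.56. Metabolic genes had 1.29 for SLC2A1, 0.87 for PDK1 and 0.83 for HMGCS1, and interferon-stimulated genes 1.48 for IFIT3 and 0.94 for OAS3.

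Among genes named by the size of their change or difference, values were positive for AC072022.2 (8.91), KLHDC7B (4.74), GDF2 (4.21), SH3TC1 (4.12), OR2AT4 (3.51), SCARF1 (3.44), AP001972.4 (2.54) and GP1BA (1.78). They were negative for TUBB3 (-4.31), AP000648.3 (-2.82), MIR29B2CHG (-2.06), GDPD3 (-1.84), ID3 (-1.75), FOXO6 (-1.46), SORBS3 (-1.13) and PANX2 (-1.01). The fitted values of AC072022.2, KLHDC7B and MT1X rest on few counts in the nilotinib libraries and depend on the prior count.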

How the results depend on the processing

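The 1208 genes called with nilotinib became 1974 with DESeq2, 10153 with limma-voom and sample quality weights (which gave a weight of 0.21 to hemin nilotinib replicate 1 and 5.79 and 5.81 to the replicates numbered 2), 741 with limma-trend on log2(FPKM + 1), 694 when the pseudocount was 0.1, 1987 with all genes with at least 1 count, 565 with a 2-fold change required, and 183 with the 6 libraries alone. With single libraries left out they ranged from 198 to 2774. The replicate block gave 1587 over the 12 libraries and 1600 in the 6 alone, and among the genes named with values it changed no call other than those of FTH1, HSF1, SERPINH1, SLC7A5 and TUBB3. Without nilotinib, a 2-fold change required left 6474 genes. The difference gave 11059 genes with limma-voom and 4073 with a 2-fold change required. HBA1 reversed, to -0.25 with limma-voom, and it ranged from -0.26 to 0.85 with single libraries left out. For single genes, 1582 of 1887 values under an alternative kept their direction and side of the threshold, 254 fell below it and 49 passed it anew. Apart from the fewer genes or libraries of some settings, the cause was not tested. Depth limits genes with few counts, such as HMOX1 and MT1X.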
